A study of Danio rerio with 24 samples.

Results

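Nuclear receptor genes were followed in the livers of 24 zebrafish. They were chosen by gene name (the nr0 to nr6 families, PPAR, retinoic acid, retinoid X, ROR, thyroid hormone, estrogen, estrogen-related and androgen receptors), and a gene was kept when it had at least 20 counted reads in 3 or more fish. Of 28210 genes in the table, 66 carried such a name and 50 were kept. The kept gene nearest to the limit was nr4a2b, with 22 reads in the third-highest fish, and the nearest one left out was nr6a1b, with 15. Among the 50, nr2c2ap encodes a protein that associates with a receptor and is not itself a receptor. All 24 fish were 2 months old and came from outcrosses of heterozygous carriers to wildtype TU fish, with 6 fish in each of 4 genotypes. Z+ fish carried Tg(lfabp:eGFP-T2A-ZAAT), which drives eGFP and the human Z variant of α1-antitrypsin in the liver. A+ fish carried Tg(lfabp:eGFP-T2A-AAT) with the wildtype human protein. Z- and A- fish were the non-transgenic siblings of each line, so the A+ comparison shows what an antitrypsin transgene without the Z variant goes with. The transgenic lines differ in insertion as well as in the protein they make, and these cannot be told apart in Z+ against A+.

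Nuclear receptors are transcription factors, many of which are switched by a small fat-soluble ligand such as a steroid, thyroid hormone, retinoid, bile acid, oxysterol or fatty acid. Many of them bind DNA as a pair with a retinoid X receptor, and coactivators or corepressors that they recruit raise or lower transcription of the target gene. In liver the family is known for its part in bile acid, cholesterol, fatty acid, glucose and drug metabolism, in the hepatic clock and, in egg-laying females, in the making of the yolk precursor vitellogenin.

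Between 33898825 and 44715713 reads were counted per fish. Levels are given as CPM, the counted reads of a gene in a library scaled to a common total by TMM, and 3 values in a row are the lowest, the median and the highest of the 6 fish of a genotype. CPM does not correct for transcript length, so levels are compared between fish and not between genes. The transgene was at 903 to 6894 CPM in Z+ and at 1555 to 4871 CPM in A+, against at most 7.34 CPM in the 12 non-transgenic fish, and the 12 hepatocyte markers summed to between 54658 and 234539 CPM in each fish. Some livers stood apart. Vitellogenin took 51.6% of the reads of Z+ replicate 5 and 49.2% of those of Z- replicate 2, against at most 5.19% in the other 22 fish. The 11 egg markers summed to 3629 CPM in A+ replicate 2 and to at most 244 CPM elsewhere. The 9 intestinal markers summed to 1476 to 4680 CPM in Z+ replicates 3 and 6, A+ replicate 5 and A- replicate 6, and to at most 210.4 CPM in the other 20 fish. Because these are whole livers, fewer cells of a type and less RNA per cell cannot be told apart.

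Of the 50 genes, 43 passed the filter of the test (more than 100 reads in at least 3 fish), among 11801 genes in all, and 22 of these 43 differed in at least 1 comparison at an adjusted p under 0.05 (edgeR's quasi-likelihood test with Benjamini-Hochberg adjustment over the 11801 genes), where 29.3% of all tested genes did. In Z+ against A+, 11 receptor genes were higher and 1 was lower, or 27.9% of the 43, where 11.8% of all tested genes passed (5.91% upward and 5.92% downward). Against the mean of the non-transgenic genotypes, 10 were higher and 4 lower in Z+ (32.6%, beside 16.8% of all genes, 9.16% upward and 7.66% downward). Against Z- alone, 9 were higher and 2 lower in Z+ (25.6%, beside 12.2%, 7.0% upward and 5.17% downward). In A+ against A-, 4 were higher and 6 lower (23.3%, beside 10.1%, 5.27% upward and 4.86% downward). No member passed in Z- against A-, where 1.17% of all genes did. The 3 comparisons of Z+ use the same Z+ fish, so their counts are not independent of each other. The counts also include nr2c2, which passed the filter only through Z+ fish, and nr3c2, which passed it only through transgenic fish. nr0b2b, counted in Z+ against A+, passed it only through Z+ and Z- fish. The median log2 fold change over the 43 genes was 0.21 in Z+ against A+, 0.16 in Z+ against Z- and -0.21 in A+ against A-, beside medians of -0.02, 0.03 and 0.00 over all tested genes. With library totals in place of TMM the counts were 7 in Z+ against A+ (7.70% of all genes then passed), 9 against the non-transgenic genotypes (8.97%), 5 in Z+ against Z- (4.14%) and 6 in A+ against A- (4.61%), and the median over all genes in Z+ against A+ moved to -0.21. Of the 50 calls made on receptor genes over these comparisons and the test of the difference between the lines, none changed sign under any alternative.

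**Figure D1:**
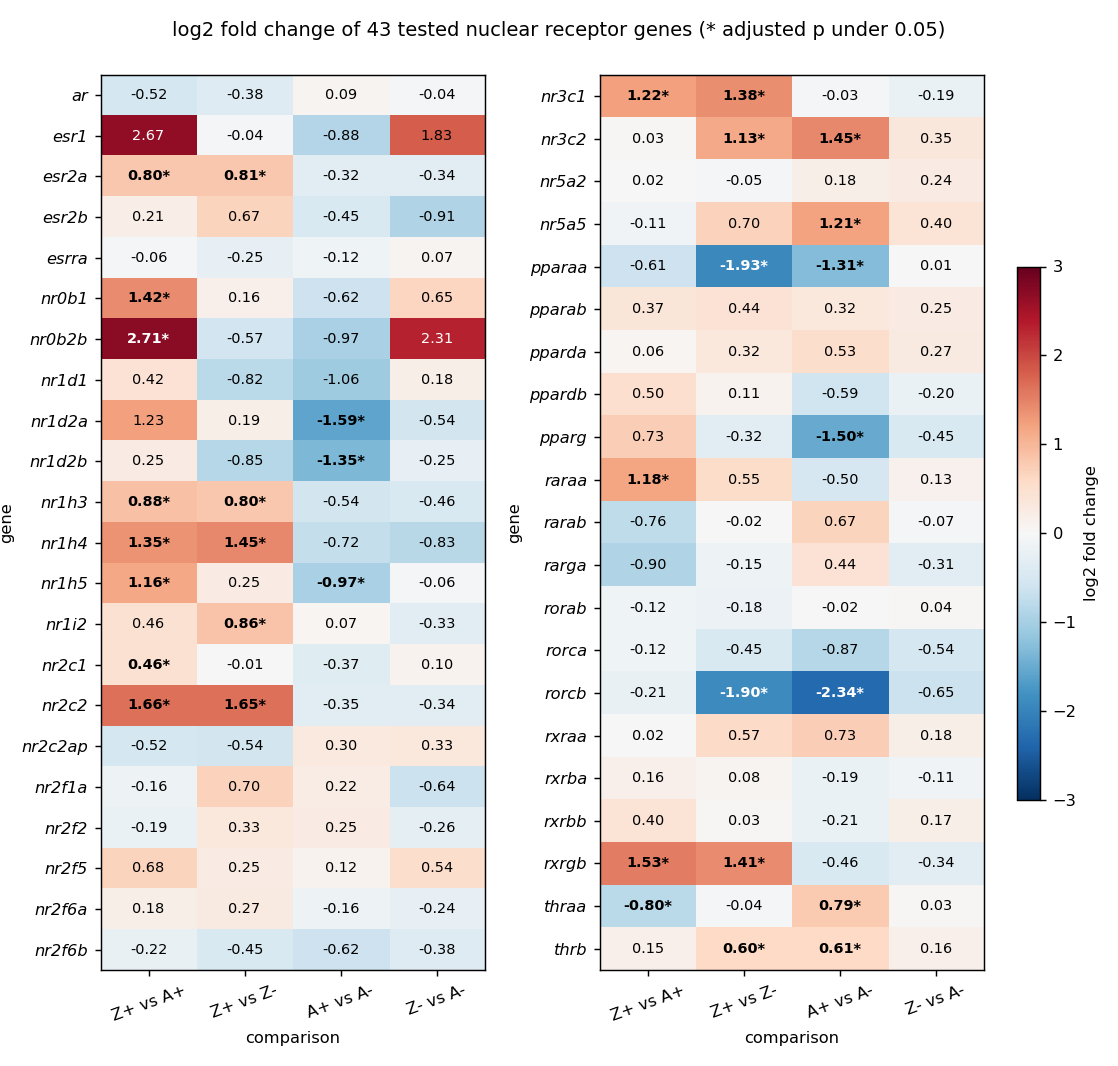
Fitted log2 fold change (number and colour) of each of the 43 tested nuclear receptor genes (rows) in 4 comparisons (columns), with an asterisk where the adjusted p is under 0.05. In both Z+ columns the same 6 genes carry an asterisk with positive values, pparaa and rorcb are negative in both columns that set transgenic fish against their siblings, and the column of Z- against A- has no asterisk.

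Of the receptors that sense sterols and bile acids, nr1h3 and nr1h4 were higher in Z+. nr1h3 encodes the liver X receptor, which binds oxysterols and in mammals induces genes of cholesterol export and fatty acid synthesis. Its level was 18.2, 22.1 and 26.3 CPM in Z+, 9.14, 11.4 and 14.5 CPM in A+, 10.7, 12.4 and 15.5 CPM in Z- and 12.3, 15.0 and 29.8 CPM in A-. All 6 Z+ fish lay above all A+ and all Z- fish, while 1 A- fish was above every Z+ fish. The rise was 1.84-fold over A+ (log2 0.88 ± 0.18 SE, adjusted p = 0.0057) and 1.74-fold over Z- (adjusted p = 0.0070). nr1h3 kept its calls when any 1 fish was left out, and lost them with library totals as scaling (adjusted p = 0.072 in Z+ against A+).

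nr1h4 encodes the farnesoid X receptor, the bile acid sensor that in mammals restrains bile acid synthesis. In Z+ it was at 24.1, 36.2 and 75.9 CPM, with 6.45, 14.5 and 28.2 CPM in A+, 9.29, 14.0 and 23.1 CPM in Z- and 16.0, 28.9 and 35.0 CPM in A-. Every Z+ fish was above every Z- fish and 5 of the 6 were above every A+ fish, but Z+ and A- overlapped. The fold was 2.54 over A+ (log2 1.35 ± 0.33, adjusted p = 0.015) and 2.74 over Z- (log2 1.45 ± 0.33, adjusted p = 0.0066). Z+ replicate 2 was the highest fish, at 75.9 CPM, and without it the call against A+ was lost. For nr1h4, 4 of the 6 A+ fish were also below every A- fish, though it did not pass in A+ against A-. The second farnesoid X receptor gene, nr1h5, whose mammalian counterpart binds lanosterol in mice, passed as lower in A+ than in A-. It stood at 29.3, 37.5 and 44.7 CPM in Z+ and 10.2, 16.1 and 29.2 CPM in A+, and all Z+ fish lay above all A+ fish (2.23-fold, adjusted p = 0.011). It was 1.96-fold lower in A+ than in A- (19.8, 28.6 and 57.9 CPM, adjusted p = 0.025), and the fold between Z+ and Z- (22.7, 28.5 and 43.4 CPM) was 1.19 (adjusted p = 0.59). The call in A+ against A- was lost with library totals (adjusted p = 0.057) and without the 4 fish with intestinal transcripts (adjusted p = 0.076).

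nr1i2 encodes the pregnane X receptor, which binds drugs and bile acids and induces detoxifying enzymes. Its level was 8.24, 10.4 and 14.0 CPM in Z+, 3.28, 8.41 and 11.1 CPM in A+, 2.24, 6.16 and 9.80 CPM in Z- and 4.98, 7.61 and 9.39 CPM in A-, with overlap between all genotypes. It passed over Z- (1.81-fold, adjusted p = 0.045) and over the non-transgenic genotypes (1.62-fold, adjusted p = 0.044). These calls were among the least firm, since 29 of the 48 fits that left out 1 fish lost them. Among fish of any genotype, nr1i2 was higher where cyp3a65, a cytochrome P450 gene that the receptor is known to induce in zebrafish, was higher (Pearson's r = 0.56, permutation p = 0.0049, adjusted over 4 relations 0.0097; Spearman's rho = 0.63, permutation p = 0.0012, adjusted 0.0023; n = 24 fish). After the genotype means were taken off r was 0.55, and without the 2 fish farthest from the median of cyp3a65 it was 0.54. Those 2 fish were Z+ replicate 6 and A- replicate 6, which are livers with intestinal transcripts. The relation was not tested without all 4 such livers.

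Of the fatty acid receptors, pparaa was lower in the transgenic fish of both lines. It encodes PPARα, the inducer of fatty acid oxidation in liver. Its level was 12, 15.3 and 18.5 CPM in Z+ and 11.5, 21.6 and 38.1 CPM in A+, against 29.5, 56.4 and 94.0 CPM in Z- and 32.5, 50.8 and 104 CPM in A-. Not 1 of the 6 Z+ fish reached the lowest non-transgenic fish, and 5 of the 6 A+ fish were below every A- fish. The level in Z+ was 3.82-fold lower than in Z- (log2 -1.93 ± 0.32, adjusted p = 5.4e-04), and in A+ it was 2.48-fold lower than in A- (log2 -1.31 ± 0.31, adjusted p = 0.016). Between Z+ and A+ the log2 fold change was -0.61, with a 95% interval of -1.25 to 0.03 and an adjusted p of 0.20. The transgene difference itself did not pass between the lines (interaction log2 -0.62 ± 0.43, adjusted p = 0.41). pparaa kept each of its 3 calls whichever 1 fish was left out.

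pparg encodes PPARγ, known for fat storage. It was at 3.73, 8.25 and 12.8 CPM in A+, against 13.5, 22.1 and 37.0 CPM in A-, and no A+ fish reached the lowest A- fish (2.83-fold lower, log2 -1.50 ± 0.31, adjusted p = 0.0084). In the Z line it was at 10.3, 11.9 and 21.0 CPM in Z+ and 8.67, 16.5 and 24.8 CPM in Z-, which overlapped (adjusted p = 0.53). The interaction for pparg was 1.18 ± 0.43 on the log2 scale (adjusted p = 0.12), so the lines were not shown to differ. The duplicate pparab and the PPARδ genes pparda and ppardb passed in no comparison. pparab, for example, was at 11, 13.5 and 18.8 CPM in Z+ and 3.64, 10.8 and 14.6 CPM in Z-.

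Among the steroid receptors, the glucocorticoid receptor gene nr3c1 and the mineralocorticoid receptor gene nr3c2, whose products both bind cortisol in fish, had different patterns. nr3c1 was at 15.4, 20.5 and 30.6 CPM in Z+, against 6.22, 9.32 and 11.8 CPM in A+, 4.90, 8.05 and 12.7 CPM in Z- and 4.99, 9.86 and 11.7 CPM in A-. The 6 Z+ fish did not overlap with any other genotype and lay above it. The rise was 2.33-fold over A+ (log2 1.22 ± 0.25, adjusted p = 0.0044) and 2.61-fold over Z- (log2 1.38 ± 0.25, adjusted p = 0.0010). nr3c1 was nearly level between A+ and A- (log2 -0.03, 95% interval -0.53 to 0.48), and its interaction came close to the threshold (log2 1.41 ± 0.34, adjusted p = 0.056).

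nr3c2 was instead higher with either transgene. It was at 2.1, 4.23 and 5.14 CPM in Z+ and 1.69, 3.89 and 6.12 CPM in A+, against 1.20, 1.69 and 2.24 CPM in Z- and 0.865, 1.13 and 2.09 CPM in A-. In each line 5 of the 6 transgenic fish were above all of their siblings. The fold was 2.19 in the Z line (adjusted p = 0.019) and 2.73 in the A line (log2 1.45 ± 0.31, adjusted p = 0.0097). Without the 4 fish with intestinal transcripts the call in the Z line was lost (log2 0.91, adjusted p = 0.12).

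Of the estrogen receptors, esr2a, an estrogen receptor β gene, was higher in Z+, at 18.3, 29.7 and 34.0 CPM against 12.4, 15.8 and 18.8 CPM in A+, 9.96, 14.4 and 25.6 CPM in Z- and 10.6, 20.4 and 27.1 CPM in A-. The fold was 1.74 over A+ (adjusted p = 0.030) and 1.76 over Z- (adjusted p = 0.024), with 5 Z+ fish above every A+ fish and 4 above every Z- fish. Both calls were lost without the 4 fish with intestinal transcripts, where the adjusted p was 0.063 over A+ and 0.053 over Z-. They were also lost with library totals and without Z+ replicate 2 alone. In Z+ replicates 3 and 6, which had intestinal transcripts, esr2a was at 20.5 and 29.1 CPM, within the range of the other Z+ fish. Its duplicate esr2b was at 28.9, 38.6 and 43.2 CPM in Z-, against 56.4, 71.2 and 84.5 CPM in A-. Although no Z- fish reached the lowest A- fish, esr2b did not pass the test (log2 -0.91 ± 0.27, adjusted p = 0.11).

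esr1, the estrogen receptor α gene, whose product drives vitellogenin transcription in female fish liver, varied more within genotypes than between them. Its level was 2.32, 4.03 and 95.6 CPM in Z+, 1.24, 2.82 and 8.68 CPM in A+, 0.973, 4.34 and 122 CPM in Z- and 1.62, 4.90 and 17.9 CPM in A-, and it passed in no comparison. The highest fish were Z+ replicate 5 (95.6 CPM) and Z- replicate 2 (122 CPM), the vitellogenin-rich livers. Those 2 fish stood apart on both axes, so the relation is given over the other 22, in which esr1 and the mean log2 CPM of 7 vitellogenin genes also went together (Pearson's r = 0.59, permutation p = 0.0031, adjusted over 4 relations 0.012; Spearman's rho = 0.64, permutation p = 0.0015, adjusted 0.0058). The androgen receptor gene ar was at 10.7, 16.6 and 20.1 CPM in Z+ and 11.6, 25.2 and 33.5 CPM in A+ and passed nowhere, and neither did esrra, the estrogen-related receptor α gene.

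**Figure D2:**
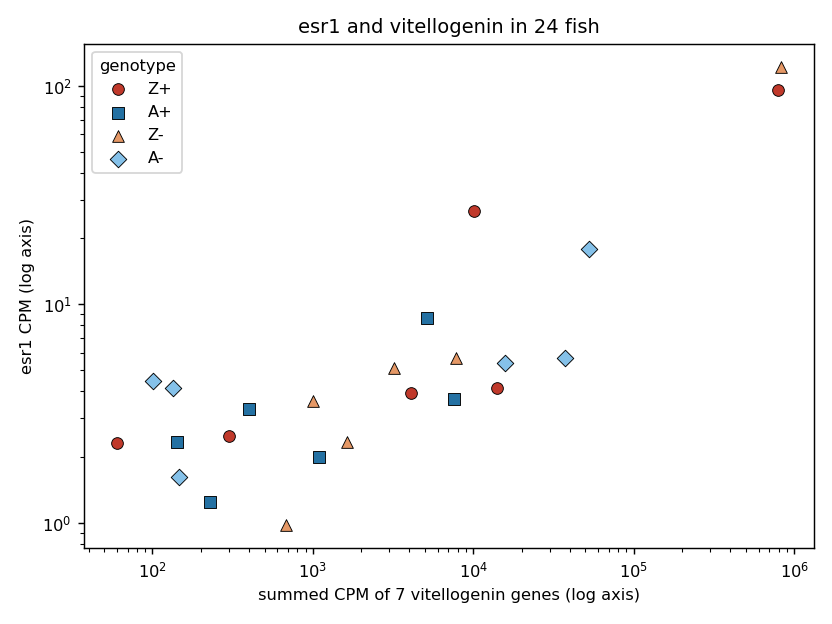
CPM of esr1 (vertical, log axis) against the summed CPM of 7 vitellogenin genes (horizontal, log axis) in each of 24 livers, with a symbol for each genotype. The points at the top right are Z+ replicate 5, with 95.6 CPM of esr1, and Z- replicate 2, with 122 CPM, and the other 22 fish spread from 0.973 CPM upward with all genotypes mixed.

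Retinoid X receptors are the partners with which the liver X, farnesoid X, pregnane X, PPAR, retinoic acid and thyroid hormone receptors bind DNA. rxrgb, a retinoid X receptor γ gene, was at 2.56, 13.9 and 22.6 CPM in Z+, against 3.46, 3.96 and 6.62 CPM in A+, 3.08, 4.31 and 7.12 CPM in Z- and 3.36, 5.10 and 8.81 CPM in A-. In 4 of the 6 Z+ livers it was above every other fish, at 11.1 to 22.6 CPM, while Z+ replicate 5, the vitellogenin-rich Z+ liver, was the lowest of all 24 fish at 2.56 CPM. The fold was 2.89 over A+ (log2 1.53 ± 0.38, adjusted p = 0.015) and 2.66 over Z- (adjusted p = 0.017), and without the 3 livers rich in egg or vitellogenin transcripts the log2 fold change over A+ was 1.69 (adjusted p = 0.0031). The call over A+ and over Z- was lost without Z+ replicate 2. The other retinoid X receptor genes tested, rxraa, rxrba and rxrbb, passed nowhere, with rxrba at 12.6, 14.7 and 17.6 CPM in Z+ and 12.8, 13.3 and 14.2 CPM in A+.

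Among retinoic acid receptors only raraa passed, in Z+ against A+ alone (3.41, 6.32 and 7.35 CPM in Z+ and 1.78, 2.26 and 3.97 CPM in A+, 2.26-fold, adjusted p = 0.029). This call was lost in 4 of the 24 fits without 1 fish. Library totals, the replicate number as a block and leaving out the 4 fish with intestinal transcripts each ended it too. rarab and rarga passed nowhere, and both had their highest level in A+ replicate 2, the liver with egg transcripts (39.8 and 9.38 CPM). The thyroid hormone receptor genes moved in different ways. thrb was at 10.7, 13.0 and 13.9 CPM in Z+ and 6.25, 11.4 and 17.3 CPM in A+, against 6.44, 8.09 and 11 CPM in Z- and 5.96, 7.22 and 9.09 CPM in A-, a fold of 1.52 for Z+ over Z- (adjusted p = 0.040) and of 1.52 for A+ over A- (adjusted p = 0.041). thraa was higher in A+ than in A- (3.86, 5.50 and 11.3 CPM against 2.87, 3.43 and 4.46 CPM, 1.73-fold, adjusted p = 0.043), and it was the member that was lower in Z+ (2.15, 3.22 and 5.46 CPM) than in A+ (1.74-fold, adjusted p = 0.038). The highest A+ fish for thraa was A+ replicate 2, the liver with egg transcripts, and without the 3 fish with egg or vitellogenin transcripts the call in A+ against A- was lost (log2 0.52, adjusted p = 0.072). Leaving out single fish ended 16 of 48 calls of thraa and 16 of 72 calls of thrb.

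**Figure D3:**
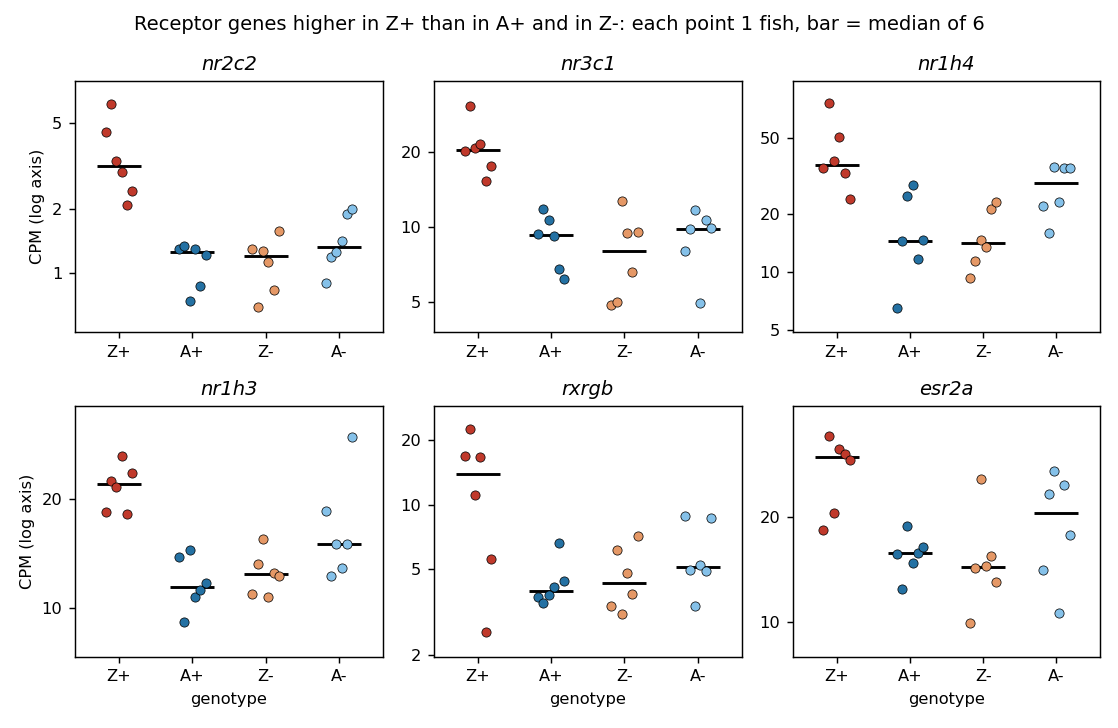
CPM (log axis) of the 6 genes that were higher in Z+ than in A+, Z- and the mean of the non-transgenic genotypes, with 1 point for each fish and a bar at the median of 6 fish. For nr2c2 and nr3c1 the lowest Z+ fish (2.08 and 15.4 CPM) lies above every fish of the other 3 genotypes, whereas for rxrgb 1 Z+ fish is the lowest of all.

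Of the clock receptors, rorcb was lower with either transgene, and the nr1d2 genes were lower in A+ than in A-. REV-ERB receptors (nr1d genes) and ROR receptors compete for the same DNA element, the REV-ERBs repressing and the RORs activating clock genes. The time of day at which the livers were taken is not given in the sources used here. rorcb, a RORγ gene, was at 1.83, 3.53 and 6.41 CPM in Z+ and 0.918, 2.92 and 11 CPM in A+, against 3.74, 13.3 and 23 CPM in Z- and 12.3, 19.5 and 33.4 CPM in A-. All A+ fish were below all A- fish, while Z+ and Z- overlapped because of 1 low Z- fish (3.74 CPM). It was 3.74-fold lower in Z+ than in Z- (log2 -1.90 ± 0.48, adjusted p = 0.013) and 5.06-fold lower in A+ than in A- (log2 -2.34 ± 0.49, adjusted p = 0.0084). The other ROR genes tested, rorab and rorca, passed nowhere.

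nr1d2b, a REV-ERBβ gene, was at 6.82, 14.7 and 20.8 CPM in A+, against 22.4, 32.7 and 54.5 CPM in A-, with no overlap (2.55-fold lower, adjusted p = 0.012). In Z+ it was at 10.1, 14.2 and 28.3 CPM, against 22.3, 29.7 and 38.6 CPM in Z-, and it passed against the mean of the non-transgenic genotypes (1.97-fold lower, adjusted p = 0.014) though not against Z- alone (log2 -0.85 ± 0.30, adjusted p = 0.062). The call of nr1d2b against that mean was lost without the 4 fish with intestinal transcripts. Its duplicate nr1d2a was 3.0-fold lower in A+ (5.35, 10.8 and 56.7 CPM) than in A- (26.6, 48.9 and 116 CPM, adjusted p = 0.045), a call that 19 of the 24 fits without 1 fish lost. In the Z line nr1d2a was at 22, 42.2 and 72.1 CPM in Z+ and 14.2, 40.6 and 54.3 CPM in Z-. nr1d1, the REV-ERBα gene, had 10.3, 20.7 and 54.8 CPM in Z+ and 5.16, 10.6 and 43.1 CPM in A+, against 27.3, 42.4 and 54.9 CPM in Z- and 30.4, 34.6 and 52.0 CPM in A-, and passed nowhere. REV-ERB proteins repress arntl genes in mammals, and across the 24 fish nr1d1 had no clear relation to the mean of arntl1a and arntl1b (Pearson's r = -0.07, permutation p = 0.74; Spearman's rho = 0.13, permutation p = 0.55, both also 0.74 and 0.55 after adjustment over 4 relations). Its sign was positive without A+ replicate 2.

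**Figure D4:**
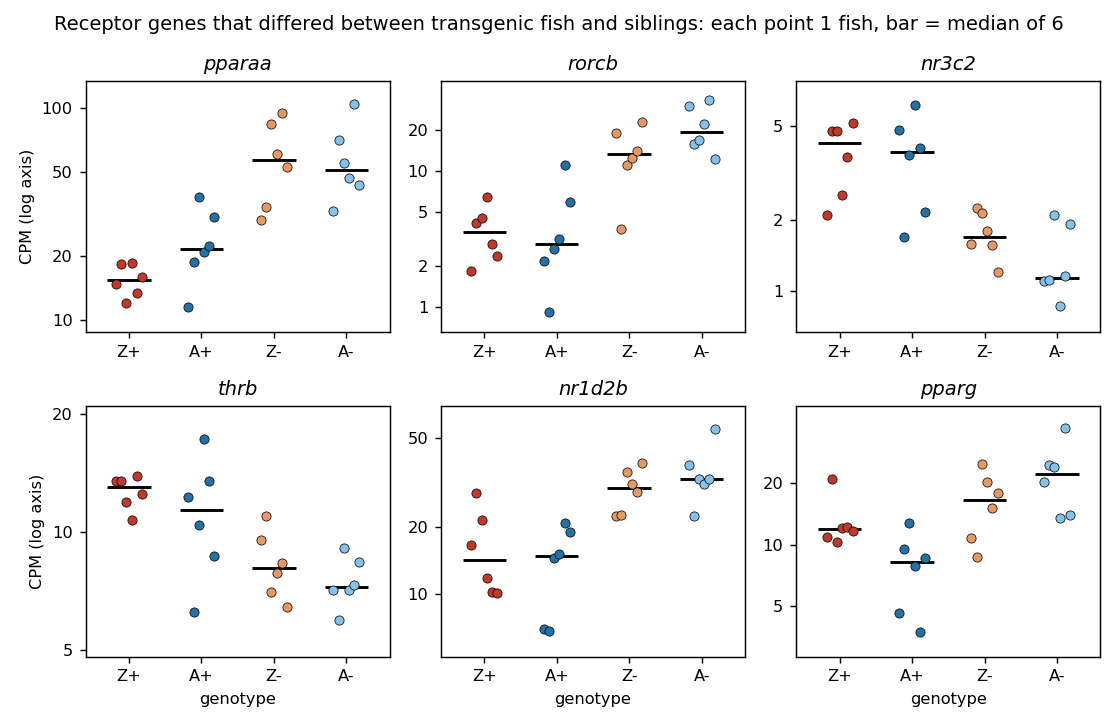
CPM (log axis) of 6 receptor genes that differed between transgenic fish and their siblings in 1 or both lines, with 1 point for each fish and a bar at the median of 6. For pparaa the Z+ fish (12 to 18.5 CPM) lie below all non-transgenic fish, the lowest of which had 29.5 CPM, and for pparg the low group is A+.

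Among the receptors whose fish did not overlap, nr2c2 of the testicular receptor family had the largest upward fold in Z+ over A+ and over Z-. It encodes TR4, which in mammals can be activated by fatty acids and competes with other receptors for their sites. It was at 2.08, 3.15 and 6.12 CPM in Z+, against 0.743, 1.25 and 1.34 CPM in A+, 0.697, 1.20 and 1.57 CPM in Z- and 0.899, 1.33 and 1.99 CPM in A-. Each Z+ fish was above all fish of the other 3 genotypes. The fold was 3.16 over A+ (log2 1.66 ± 0.29, adjusted p = 0.0014) and 3.14 over Z- (log2 1.65 ± 0.29, adjusted p = 8.1e-04). nr2c2 was the 1 gene of the 6 whose calls in the Z+ comparisons also held with library totals as scaling (adjusted p = 0.029 over A+). nr2c1, which encodes the related TR2, was at 5.47, 7.82 and 9.57 CPM in Z+ and 4.46, 6.17 and 6.29 CPM in A+ (1.38-fold, adjusted p = 0.049), and 21 of the 24 fits without 1 fish lost this call. nr2c2ap, the receptor-associated protein, was at 2.35, 4.20 and 8.02 CPM in Z+ and 4.06, 5.31 and 13.7 CPM in A+ and passed nowhere.

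Of the COUP-TF group, transcription factors with broad repressing roles, nr2f6b was 1.57-fold lower in Z+ (3.27, 5.78 and 6.70 CPM) than in the non-transgenic genotypes (5.01, 7.50 and 10.3 CPM in Z- and 5.51, 10.6 and 12.1 CPM in A-, adjusted p = 0.043). Of the 24 fits without 1 fish 11 lost this call, and it was also lost with library totals (adjusted p = 0.078) and without the 4 fish with intestinal transcripts (adjusted p = 0.10). nr2f2, nr2f5 and nr2f6a passed nowhere. nr2f1a also passed nowhere, although its 6 Z+ fish (4.27, 5.27 and 7.71 CPM) were above all 6 Z- fish (2.49, 3.64 and 4.24 CPM, adjusted p = 0.089). Over the 43 genes, fish did not overlap for 6 in Z+ against Z- (7.81% of all genes did not), for 4 in Z+ against A+ (3.33%), for 3 in Z+ against the non-transgenic fish (3.77%), for 3 in A+ against A- (2.73%) and for 1 in Z- against A- (1.85%).

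Of the 3 receptors without a classical DNA-binding domain, which repress other receptors, nr0b1 and nr0b2b were higher in Z+ than in A+ and nr0b2a was not. nr0b1 encodes DAX1 and was at 26.8, 64.7 and 67.8 CPM in Z+ and 7.97, 22.9 and 27.8 CPM in A+ (2.68-fold, log2 1.42 ± 0.31, adjusted p = 0.0067), with 5 of the 6 Z+ fish above all A+ fish. Its Z- level was 28.7, 52.4 and 66.0 CPM, and Z+ and Z- overlapped widely (adjusted p = 0.78). nr0b2b, a gene of SHP, the repressor that in mammals is induced by the farnesoid X receptor, was at 0.221, 2.74 and 9.32 CPM in Z+ and 0.0984, 0.244 and 1.65 CPM in A+, which was 6.56-fold higher in Z+ (log2 2.71 ± 0.83, adjusted p = 0.038). In Z- it was at 1.30, 2.93 and 14.4 CPM and in A- at 0.0523, 0.887 and 2.21 CPM, so that the spread within a genotype was wide, and 8 of the 24 fits without 1 fish lost the call. With at most 53 reads in A+ and 86 in A-, nr0b2b passed the filter of the test only through Z+ and Z- fish. The second SHP gene, nr0b2a, did not pass the filter, with 0.0743, 0.389 and 2.58 CPM in Z+ and 0.0892, 1.87 and 2.68 CPM in A+ (log2 -0.92, adjusted p = 0.58 in the fit with a filter of 20 reads). In A- it was at 0.103, 0.649 and 13.3 CPM, where the highest fish was A- replicate 6, a liver with intestinal transcripts.

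nr5a5, a fish gene of the family of the steroidogenic regulators, was at 27.7, 101 and 141 CPM in A+, against 31.6, 36.4 and 66.5 CPM in A- (2.31-fold higher, log2 1.21 ± 0.33, adjusted p = 0.025). In Z+ it was at 40.0, 97.0 and 132 CPM and in Z- at 35.9, 59.8 and 70.6 CPM (adjusted p = 0.16), and it was 1.86-fold higher in Z+ than in the non-transgenic genotypes (adjusted p = 0.029). Without the 4 fish with intestinal transcripts both calls were lost (adjusted p = 0.097 in A+ against A- and 0.15 in Z+ against the non-transgenic genotypes), and with the replicate number as a block the adjusted p in A+ against A- was 0.053. nr5a2, which encodes LRH-1, an activator of bile acid synthesis genes in mammals, passed nowhere (24.3, 34.6 and 56.5 CPM in Z+ and 20.2, 38.8 and 42 CPM in A+). The 7 genes below the filter of the test were nr0b2a, nr1d4a, nr4a1, nr4a2b, nr4a3, roraa and thrab. In a fit with a filter of 20 reads, nr4a3, a gene of the rapidly induced NR4A group, was the one of these 7 that passed, with a log2 fold change of 1.5 in Z+ against the non-transgenic genotypes (adjusted p = 0.0098) and of 1.49 against Z- (adjusted p = 0.043). Its 2 highest fish were Z+ replicates 3 and 6 (5.16 and 4.12 CPM), both with intestinal transcripts, and the other 4 Z+ fish had at most 0.915 CPM, within the range of A+. The part of intestinal tissue in this difference was not tested.

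**Figure D5:**
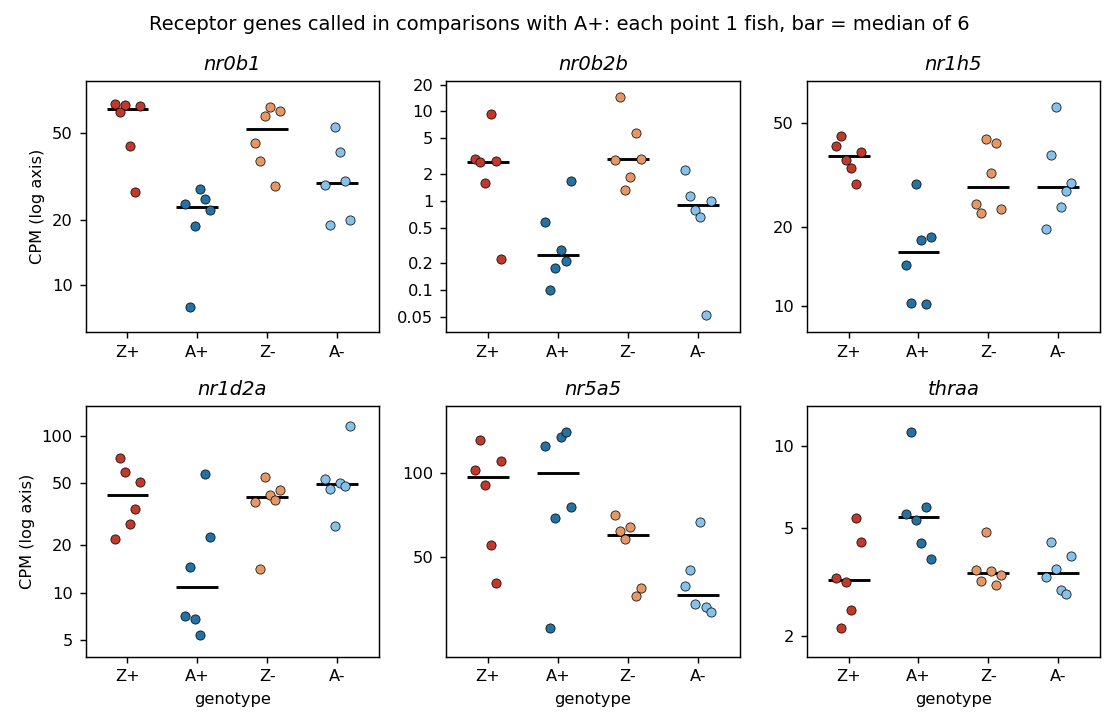
CPM (log axis) of 6 receptor genes that passed in a comparison with A+, with 1 point for each fish and a bar at the median of 6. For nr0b1, nr0b2b, nr1h5 and nr1d2a the lowest median is that of A+ (22.9, 0.244, 16.1 and 10.8 CPM), and for thraa it is the highest (5.50 CPM).

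By pattern, 6 genes (nr2c2, nr3c1, nr1h3, nr1h4, rxrgb and esr2a) were higher in Z+ in all 3 comparisons, beside 2.23% of all genes, and none was lower in all 3. Among them, nr2c2 entered the test only through its reads in Z+ fish. Without the 4 fish with intestinal transcripts 5 of the 6 kept every call, and likewise without the 3 fish with egg or vitellogenin transcripts and without all 7, with esr2a the exception each time. Of the same 6 genes, 1 kept every call with library totals as scaling. Another set of 4 genes differed from the siblings in the same direction with either transgene, nr3c2 and thrb upward (0.924% of all genes) and pparaa and rorcb downward (1.14%). Here nr3c2 entered the test only through its reads in transgenic fish. Of these 4, pparaa and rorcb kept both calls with library totals and without the 4 fish with intestinal transcripts, while nr3c2 and thrb each lost at least 1 call both times, and thrb lost calls with the replicate number as a block as well. The difference between the transgene effects of the lines was also tested for each gene. It passed for nr1h3 (log2 1.34 ± 0.26, adjusted p = 0.017), nr2c2 (2.00 ± 0.40, adjusted p = 0.021) and nr1h4 (2.18 ± 0.47, adjusted p = 0.031), beside 0.525% of all genes (0.449% in this direction). Each time the Z+ minus Z- difference was above the A+ minus A- difference. Levels in A+ below those in A- were part of this. For nr1h3 and for nr1h4, 4 of the 6 A+ fish lay below every A- fish, and for nr2c2 2 did. None of these genes passed in A+ against A-. The call for nr2c2 was lost without Z+ replicate 2, and 9 of 24 fits without 1 fish lost that for nr1h4. None of the 3 passed with library totals.

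In Z- against A-, the comparison of the non-transgenic siblings, 0 of the 43 genes passed with edgeR (1.17% of all genes did) and 2 passed with DESeq2 (5.59% of all genes did). With edgeR 6 had an unadjusted p under 0.05, for which the share over all genes was not counted. The smallest p was that of esr2b, and nr1h4 and nr1h3 were among the 6, with log2 fold changes of -0.83 ± 0.33 (adjusted p = 0.21) and -0.46 ± 0.18 (adjusted p = 0.21), lower in Z- than in A-. For both, the A- fish overlapped the Z+ fish.

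Coregulators, which receptors recruit to open or close chromatin, were followed as a list of 25 tested genes. In Z+ against Z-, 7 were higher and 0 lower, where 7.0% of all genes were higher and 5.17% lower (median log2 fold change 0.10, beside 0.03 over all genes). In Z+ against A+, 3 were higher and 1 lower, beside 5.91% and 5.92% (median -0.01, beside -0.02), and in A+ against A- 0 were higher and 1 was lower, beside 5.27% and 4.86%. ncoa3, a steroid receptor coactivator, was at 14.8, 19.1 and 27.9 CPM in Z+, against 7.62, 9.79 and 13.6 CPM in A+ and 5.83, 9.63 and 12.9 CPM in Z-, with no overlap (log2 1.02 ± 0.21 over A+, adjusted p = 0.0047). ncoa1, of the same family, was at 1.89, 3.85 and 7.62 CPM in Z+, against 1.28, 2.08 and 2.98 CPM in A+ and 0.911, 1.35 and 1.86 CPM in Z- (log2 1.59 ± 0.30 over Z-, adjusted p = 0.0014). However, ncoa1 passed the filter of the test only through transgenic fish. The counts of higher coregulators in Z+ against Z- and in Z+ against A+ include it. ep300b, a histone acetyltransferase, rose over Z- (log2 1.75 ± 0.28, adjusted p = 4.9e-04), and so did the corepressor ncor1 (log2 0.92 ± 0.20, adjusted p = 0.0052). Of the HNF4 receptors, which the naming rule did not take, hnf4g was higher in Z+ than in Z- (7.86, 12.6 and 22.6 CPM against 4.34, 6.22 and 7.62 CPM, log2 1.16 ± 0.30, adjusted p = 0.015). hnf4a was at 121.1, 161 and 171 CPM in Z+ and 62.1, 142 and 179.8 CPM in A+, against 78.0, 107 and 118 CPM in Z- and 70.5, 83.7 and 117 CPM in A-. It was higher in Z+ than in the non-transgenic genotypes (log2 0.65, adjusted p = 0.0077) and in A+ than in A- (log2 0.62, adjusted p = 0.043), and 9 of the 24 fits without 1 fish lost the A+ call. Without the 4 fish with intestinal transcripts these calls of hnf4g and hnf4a were lost.

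Further genes, only some of them known as targets of these receptors in mammals, were counted list by list. The shares of all genes that passed were 11.8% in Z+ against A+, 12.2% in Z+ against Z- and 10.1% in A+ against A-. Of 7 tested bile acid genes, 0 differed in Z+ against A+, and in Z+ against Z- cyp7a1, the rate-limiting enzyme of bile acid synthesis, was higher and slc51a, a bile acid exporter subunit, was lower. cyp7a1 was at 1.93, 25.7 and 148 CPM in Z+, against 1.18, 2.56 and 5.10 CPM in Z- (log2 3.95 ± 1.13, adjusted p = 0.025), and it overlapped A+ at 2.43, 15.7 and 22.4 CPM. In A- cyp7a1 was at 0.216, 2.93 and 115 CPM. Its call over Z- was lost in 4 of the 24 fits without 1 fish, and was weakest without Z+ replicate 2 (log2 3.04, adjusted p = 0.077). That of slc51a was lost without the 4 fish with intestinal transcripts. nr0b2a, although SHP represses cyp7a1 in mammals, was not lower where cyp7a1 was higher (Pearson's r = 0.40, permutation p = 0.056, adjusted over 4 relations 0.075; Spearman's rho = 0.37, permutation p = 0.078, adjusted 0.10; n = 24 fish, with r = 0.29 without the 2 farthest fish). Of 14 genes of sterol efflux and lipogenesis, abca1a, the cholesterol exporter, was higher in Z+ than in A+ (72.1, 107 and 185 CPM against 33.0, 40.2 and 60.6 CPM, log2 1.51 ± 0.33, adjusted p = 0.0073), and it was low in A+ compared with A- (45.8, 177 and 285 CPM, log2 -1.98, adjusted p = 0.0025). The interaction for abca1a passed as well (log2 2.73 ± 0.46, adjusted p = 0.012). In Z- abca1a was at 56.5, 69.6 and 90.9 CPM, and it did not pass in Z+ against Z-. Its low level in A+ beside A- was therefore part of the interaction. In the same list lpcat3 was lower in Z+ than in Z-. mylipa passed as lower in Z+ (1.82, 2.79 and 3.90 CPM) than in A+ (2.86, 3.39 and 36.4 CPM), a call that was lost without A+ replicate 2, the liver with egg transcripts (log2 -0.36, adjusted p = 0.30).

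Of 18 genes listed under fatty acid oxidation and PPARα, 1 was higher in Z+ than in A+, 1 was lower in Z+ than in Z- and 2 were lower in A+ than in A-. plin2, a lipid droplet coat protein, was at 20.9, 52.8 and 135 CPM in Z+ and 67.0, 313 and 521 CPM in Z- (log2 -2.07 ± 0.62, adjusted p = 0.032), and 5 of the 24 fits without 1 fish lost this call. In the A line plin2 was at 34.8, 58.2 and 232 CPM in A+ and 96.4, 274 and 450 CPM in A-, which did not pass. The medians of this list were -0.14 in Z+ against Z- and -0.23 in A+ against A- on the log2 scale, beside 0.03 and 0.00 over all genes. Of 14 glucocorticoid response genes, fkbp5, a chaperone partner of the receptor, was higher in Z+ than in A+ (327, 556 and 762 CPM against 82.4, 200.1 and 531 CPM, adjusted p = 0.030, a call lost in 4 of the 24 fits without 1 fish), and zbtb16a was lower in Z+ (0.475, 2.55 and 17.0 CPM) than in A+ (17.7, 30.6 and 55.0 CPM, log2 -2.66 ± 0.57, adjusted p = 0.0065) and than in Z- (15.9, 27.5 and 58.8 CPM, adjusted p = 0.0054). The other 12 did not pass in Z+ against A+. fkbp5 was at 161, 439 and 458 CPM in Z- and 327, 414 and 604 CPM in A-, and it did not pass in Z+ against Z-. In A+ against A- mt2 was higher, and tsc22d3 and per1a were lower. In Z+ against A+, 1 gene higher and 1 lower of 14 stand beside 5.91% and 5.92% of all genes. The median log2 fold change of the glucocorticoid list was 0.35 in Z+ against A+, 0.02 in Z+ against Z- and -0.28 in A+ against A-. Over all genes these medians were -0.02, 0.03 and 0.00. Whether the list moved as a whole was not tested.

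Of 9 xenobiotic genes, 1 passed in Z+ against A+ (abcc2, an exporter, higher, a call lost in 10 of the 24 fits without 1 fish) and 1 in Z+ against Z- (abcb4, an exporter gene, higher, log2 1.61 ± 0.36, adjusted p = 0.0061). The median log2 fold change of this list was 0.72 in Z+ against A+, 0.56 in Z+ against Z- and -0.34 in A+ against A-. Of 6 thyroid hormone genes, 2 were higher in Z+ than in A+ and 2 higher in Z+ than in Z-. dio2, the deiodinase that activates thyroid hormone, was at 72.4, 134 and 307 CPM in Z+, against 17.6, 27.9 and 84.5 CPM in Z- (log2 2.08 ± 0.48, adjusted p = 0.0074). Its level was 24.1, 175 and 208 CPM in A+ and 37.7, 54.3 and 166 CPM in A-. It did not pass in Z+ against A+ or in A+ against A-. me1, malic enzyme, was low in A+, at 109, 299 and 422 CPM against 853, 2203 and 3814 CPM in A- (log2 -3.02 ± 0.58, adjusted p = 0.0054). Of 10 retinoid genes, rdh10b, a retinol dehydrogenase, passed as lower in Z+ (10.6, 14.0 and 24.7 CPM) than in A+ (13.4, 19.1 and 147 CPM) and as higher in A+ than in A- (11.2, 12.5 and 22.4 CPM). Without A+ replicate 2 both calls were lost, with log2 fold changes of -0.42 (adjusted p = 0.35) and 0.43 (adjusted p = 0.36). Of 22 clock partners, 5 passed upward and 1 downward in Z+ against Z-, among them the period gene per2 (33.4, 44.6 and 63.1 CPM in Z+ and 14.3, 20.7 and 25.9 CPM in Z-, log2 1.21 ± 0.19, adjusted p = 5.1e-04). nfil3-5, a repressor of the clock output, was lower in Z+ than in Z- (log2 -2.52, adjusted p = 0.0030) and in A+ than in A- (log2 -2.55, adjusted p = 0.0072). Of 11 immediate-early genes, 1 passed upward and 2 downward in Z+ against A+.

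Marker genes of other cells were set beside these results. In Z+ against A+ no marker passed of the lists for hepatocytes, intestine, exocrine pancreas, erythrocytes, leukocytes, endothelium and stellate cells. There 2 of 3 cholangiocyte markers and 2 of 6 egg markers were lower in Z+. In A+ against A- all 6 tested egg markers and 1 of 3 cholangiocyte markers were higher, and 2 of 6 erythrocyte markers were lower. In Z+ against Z- 1 of 9 intestinal markers passed, upward. Leukocyte markers summed to 128 to 345 CPM in Z+, 78.9 to 238 CPM in A+, 108 to 156 CPM in Z- and 108 to 345 CPM in A-. Their part in the receptor differences was not tested beyond the fits without the 7 livers that stood apart.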

How the data were processed

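Poly(A) RNA of 24 livers, 6 for each of the genotypes Z+, A+, Z- and A-, was sequenced by the authors, who aligned the reads with STAR to GRCz11 with the transgene added, counted them with featureCounts and merged features by gene name. The deposited values are these raw counts, without normalization. Strand use in counting is not given in the sources used here, so overlapping antisense genes cannot be told apart. Reads of close duplicates such as nr1d2a and nr1d2b may be split by the authors' counting, which makes such pairs uncertain. The authors set aside outlier fish that their text does not name, and all 24 were kept here. Sequencing run is not in the labels and entered no model.

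Genes that exceeded 100 counts in 3 or more fish were scaled by TMM and fitted as 4 genotype means with edgeR 4.0.16 (R 4.3.3), by the quasi-likelihood test with Benjamini-Hochberg adjustment over 11801 genes (threshold 0.05, biological coefficient of variation 0.546). Standard errors were the log2 fold change over the root of F. At this depth 3 counts stand for 0.0492 to 0.149 CPM. Nothing in the labels says whether fish of a genotype came from separate clutches, so p-values measure the spread between these fish. Relations between genes used log2 CPM with a prior count of 1 and 100000 two-sided permutations, adjusted over 4 relations. Of these steps, only the edgeR fit of Z+ against A+ was tried on simulated counts. The interaction, the relations and the alternatives were not. Alternatives were DESeq2 1.42.0, its size factors, library totals alone, a filter of 20 counts, no filter, a replicate block, voom (limma 3.58.1) with sample weights, only the groups compared, and leaving out each fish. Fits without livers rich in intestinal, egg or vitellogenin transcripts were chosen after seeing the data.

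Receptors were named in full when they passed in at least 1 comparison, then those of known liver classes, and of each other list up to 3 genes by smallest adjusted p, with a few more named after their values were seen. The members and the lists (coregulators, HNF4 and other receptors outside the naming rule, bile acid, fatty acid oxidation, sterol efflux and lipogenesis, xenobiotic, glucocorticoid, thyroid hormone, retinoid, clock, immediate-early, vitellogenin and cell markers) were chosen with earlier results of these data known.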

Additional observations from a re-analysis of the deposited data

Results flagged for a closer look

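In 104 genotype groups of 6 fish (26 receptor genes), 9 held a fish whose gap to the next was large for the range of the group, where chance gives about 1 group in 20. Of these 9, 5 were in livers rich in vitellogenin or egg transcripts. In Z- replicate 2, the vitellogenin-rich Z- liver, esr1 was at 121.6 CPM against at most 5.66 CPM in the other Z- fish, raraa was at 9.51 CPM and nr1d2a at 14.2 CPM. In A+ replicate 2, the liver with egg transcripts, nr0b1 was at 7.97 CPM, against 18.7 to 27.8 CPM in the other A+ fish, and nr1i2 at 3.28 CPM. The remaining fish were Z+ replicate 2 with pparg at 21.0 CPM, A+ replicate 5 with rxrgb at 6.62 CPM, Z- replicate 3 with thraa at 4.86 CPM and A- replicate 5 with nr0b2b at 0.0523 CPM.

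The effect of the transgene differed between the lines for nr1h3 (interaction 1.34 on the log2 scale), nr2c2 (2.00) and nr1h4 (2.18).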

How the results depend on the processing

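The share of all genes that passed in the same fit stands beside each count. Library totals in place of TMM left 7 receptor genes in Z+ against A+ (7.70%), 9 against the non-transgenic genotypes (8.97%), 5 in Z+ against Z- (4.14%, 3 members higher and 2 lower), 6 in A+ against A- (4.61%) and 0 for the interaction (0.00847%). With only the groups compared in the fit, 7 passed in Z+ against A+ (2.96%), 2 in A+ against A- (1.38%) and 1 in Z- against A- (1.67%). Without a filter 7 passed in Z+ against Z- (4.49%) and 0 for the interaction (0.0116%). DESeq2 gave 2 in Z- against A- (5.59%) and 7 for the interaction (7.99%), and voom 2 in Z- against A- (2.70%). In fits chosen after seeing the data, leaving out the 4 livers with intestinal transcripts gave 9 against the non-transgenic genotypes (11.6%) and 7 in Z+ against Z- (6.83%), and leaving out the 3 with egg or vitellogenin transcripts gave 6 for the interaction (4.67%). Leaving out 1 fish gave 5 to 13 in Z+ against A+ (5 without Z+ replicate 2 and 7 without Z+ replicate 4), 5 to 11 in A+ against A- (5 without A+ replicate 1, 6 without A- replicate 3 or 5) and 1 to 5 for the interaction (1 without Z+ replicate 2). The cause of these changes was not tested. No called gene changed sign, and 154 of 1200 calls were lost in fits without 1 fish and 97 of 546 under the other alternatives.

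With the replicate number as a block, 8 receptor genes passed in Z+ against A+ (6.68%), 14 against the non-transgenic genotypes (15.9%), 10 in Z+ against Z- (10.7%), 7 in A+ against A- (4.81%, 1 member higher and 6 lower), 0 in Z- against A- (0.847%) and 3 for the interaction (0.449%). Deviations of same-numbered fish from their genotype means had a median correlation of -0.004, beside -0.008 for fish of different numbers. Of the 36 same-numbered pairs, 13 had a correlation over 0.1 (range -0.45 to 0.77). The best match in another genotype had the same number in 13 of 72 combinations. Over the pairs as a whole no pairing by number was seen, but these values cannot exclude a batch shared by some fish.

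The relation of nr1d1 to arntl1 genes was -0.28 after genotype means were taken off (adjusted permutation p = 0.18). It was 0.18 with library totals and 0.19 without the 2 farthest fish, and ranged from -0.15 to 0.17 without 1 fish. The relation of nr0b2a to cyp7a1 was 0.44 after genotype means were taken off (adjusted permutation p = 0.043) and ranged from 0.24 to 0.50 without 1 fish. Low receptors limit the precision: nr0b2b had 2 reads (0.0523 CPM) in 1 fish, below the floor of 3 counts in that library (0.0784 CPM). nr0b2a had 2 reads in Z+ replicate 5 (0.0743 CPM, with a floor of 0.111 CPM) and 3 reads in A+ replicate 3. The relation of nr0b2a to cyp7a1 therefore includes fish at or below the floor.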
